A study of Mus musculus with 10 samples.

Results

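Claudins, occludin, tricellulin and cingulin are components of tight junctions, and their mRNA levels were examined in hearts of E10.5 mouse embryos that lacked the coxsackievirus and adenovirus receptor (CAR). The set comprised 10 genes (Cldn1, Cldn2, Cldn5, Cldn10, Cldn11, Cldn12, Cldn15, Ocln, Marveld2 and Cgn) of the 19938 genes represented on the array by their own cluster. They were chosen by name, and each gene was represented by the brightest transcript cluster that named it alone. All 10 had such a cluster. For Cldn10, a further cluster that also named Dzip1 was therefore not used.

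Total RNA was hybridised to Affymetrix Mouse Gene 1.0 ST arrays, in which the probes to the exons of 1 gene are combined into the signal of a transcript cluster. The 10 samples were 5 CAR KO and 5 WT samples, each of 3 pooled hearts (15 hearts per genotype). The embryos came from matings of CAR +/- mice of the line B6.Cg-Cxadr tm1/Fgr and were not treated. The knockout is global, so every cell type of the heart lacked CAR, and whole hearts were pooled, so that cell types were mixed. Neither the sex of the embryos nor the litters behind each sample is given, and p-values measure only the spread between these samples.

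Tight junctions seal the space between neighbouring epithelial or endothelial cells near their apical border. Claudins are membrane proteins with 4 transmembrane segments that form the strands of the junction. Some close the path between cells and others form pores for ions or water. Occludin and tricellulin belong to the MARVEL family of membrane proteins, and cingulin lies in the cytoplasmic plaque that ties the strands to the cytoskeleton. CAR itself is found at tight junctions of epithelia and binds the scaffold protein ZO-1. Cardiomyocytes have no classical tight junctions, whereas the endothelium and epithelia adjoining the heart do.

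To show where transcription of the genes described at most length begins, the 250 bases before an annotated start of 4 genes (Cldn1, Ocln, Marveld2 and Cgn) were read from RefSeq (GRCm38.p6). For Cldn1, Ocln and Marveld2 this start is the 5′ end of the annotated gene. For Cgn it is the 1 start listed, which lies inside the annotated span of the gene. All 4 genes lie on the minus strand, and the sequences are printed 5′ to 3′ along it. Capitals mark the GC box (GGGCGG or CCGCCC), which is bound by Sp1 and related factors. The window of Cldn1 (chr16:26371840-26372089) held 2 GC boxes, those of Ocln (chr13:100552719-100552968) and Marveld2 (chr13:100616972-100617221) held 1 each, and that of Cgn (chr3:94786483-94786732) held 6.
Cldn1: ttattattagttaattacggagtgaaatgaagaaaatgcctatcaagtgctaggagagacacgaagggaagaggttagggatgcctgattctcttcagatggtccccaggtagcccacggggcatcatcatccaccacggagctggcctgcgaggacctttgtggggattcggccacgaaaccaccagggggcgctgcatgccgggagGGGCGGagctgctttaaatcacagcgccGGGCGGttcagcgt
Ocln: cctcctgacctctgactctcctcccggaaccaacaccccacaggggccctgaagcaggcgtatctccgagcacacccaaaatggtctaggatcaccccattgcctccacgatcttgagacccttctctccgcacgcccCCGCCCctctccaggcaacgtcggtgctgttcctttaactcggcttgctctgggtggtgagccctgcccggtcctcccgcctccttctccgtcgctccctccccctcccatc
Marveld2: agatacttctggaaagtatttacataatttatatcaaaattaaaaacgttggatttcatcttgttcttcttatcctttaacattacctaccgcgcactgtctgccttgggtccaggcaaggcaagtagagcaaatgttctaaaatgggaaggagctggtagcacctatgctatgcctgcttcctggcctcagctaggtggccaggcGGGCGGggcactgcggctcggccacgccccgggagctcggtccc
Cgn: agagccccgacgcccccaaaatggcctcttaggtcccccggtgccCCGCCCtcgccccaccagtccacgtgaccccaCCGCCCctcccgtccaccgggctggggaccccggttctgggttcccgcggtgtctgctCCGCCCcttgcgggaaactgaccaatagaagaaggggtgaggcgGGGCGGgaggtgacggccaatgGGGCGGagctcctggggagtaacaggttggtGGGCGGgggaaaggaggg

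Further motifs were searched on both strands in 1 window per gene, that of the listed start nearest the 5′ end of the gene. The GC box was present in 6 of 10 genes, against 32.7% of all 32851 promoter windows. The CCAAT box (CCAAT) was present in 4 genes (33.8% of all windows), 2 of its matches lying in the Cgn window. The TATA box (TATAAA) was present in 2 genes (12.4% of all windows), and Marveld2 is one of them. The match of Marveld2 is the reverse complement (TTTATA) and lies near the 5′ end of the printed window, far from the start. The E-box CAGGTG, a sequence bound by Snail and Zeb repressors, was found in none of these 10 windows, against 17.2% of all windows, although the window of an inner start of Ocln held 2. The Grainyhead motif AACCGGTT was found in none (0.116% of all windows). Such matches describe the sequence and say nothing about binding.

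The targeted gene separated the genotypes. Cxadr, which encodes CAR and lies on chromosome 16 (chr16:78301226-78359785, GRCm38.p6), had log2 signals of 6.69, 6.56, 6.37, 6.47 and 6.23 in the CAR KO samples 1 to 5 and of 8.28, 8.25, 8.46, 8.66 and 8.24 in the WT samples 1 to 5. The difference between CAR KO and WT was -1.91 (95% confidence interval -2.14 to -1.69, adjusted p = 1.40e-05 from limma). Of the CAR KO samples, 2 of 5 lay above the background level of 6.51, which was set from receptor clusters, so that the size of this difference is a lower limit. It was the 1 transcript cluster of 28944 that passed an adjusted p under 0.05, which is 0.00345% of them. Hepatic and yolk sac transcripts varied widely between samples of both genotypes. The mean of 16 such genes ranged between 6.93 and 9.78 in CAR KO hearts and between 7.36 and 8.95 in WT hearts, and was highest in CAR KO sample 5, WT sample 5 and WT sample 2.

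None of the 10 genes passed the test between CAR KO and WT hearts. The adjusted p from limma was 1.0 for each. At an unadjusted p under 0.05 there were 3, namely Cldn12, Cgn and Cldn2, all higher in CAR KO, where 2.40% of all clusters passed (0.978% higher in CAR KO and 1.43% lower). This number depended on single samples, since none of the 10 was left without WT sample 1 or without WT sample 4. Of the 10 genes 7 were higher and 3 lower in CAR KO, with a median log2 difference of 0.05, against 0.01 over all clusters. Of all clusters 56.1% were higher in CAR KO. A mean log2 signal above 6.51, the 95th percentile of 1210 clusters for odorant or vomeronasal receptors, was taken as above background. Above it lay 8 of the 10 genes, all but Cldn2 and Cldn10, and 5 of 10 remained above the 99th percentile. Since missing the threshold is no evidence of equal levels, each difference was read with its 95% confidence interval. The intervals of 7 of the 8 genes above background lay within 1.5-fold in either direction, with Cldn1 as the exception. Of all 28944 clusters, 28173 had an interval within that limit.

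**Figure D1:**
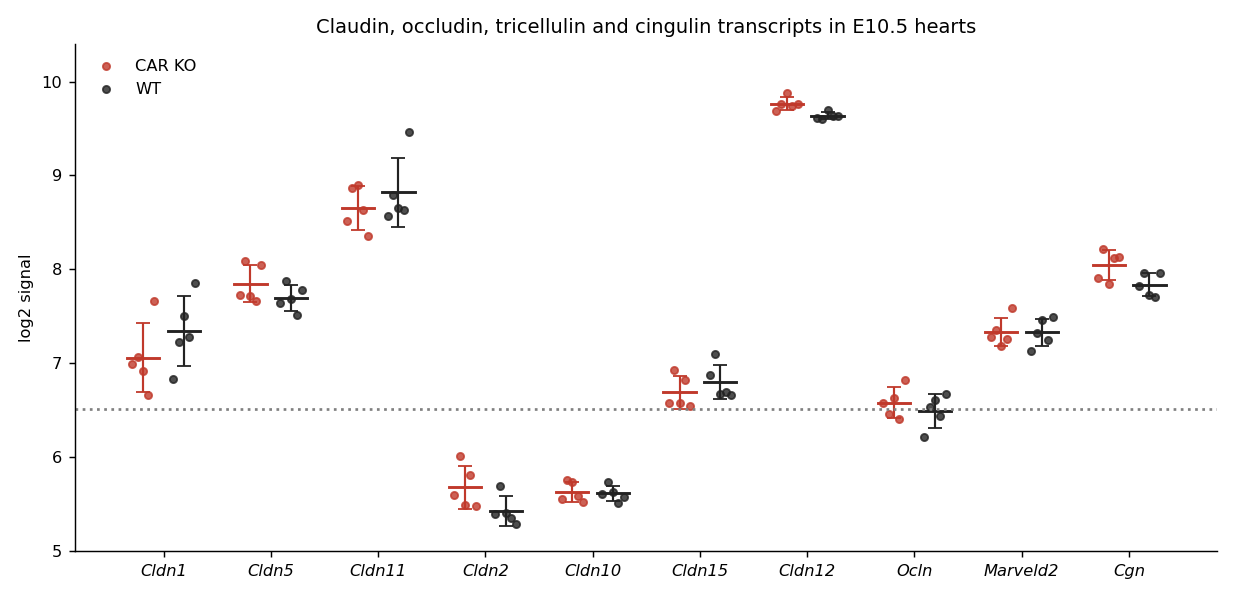
Log2 signal (vertical axis) of the 10 genes in single samples, with CAR KO in red left of WT in black for each gene, the horizontal bars giving the mean and the whiskers the SD of 5 samples. The dotted line is the background level of 6.51, with Cldn2 and Cldn10 below it in every sample, and the genotypes overlap for every gene. Heights of different genes are not comparable, since probes differ in brightness.

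**Figure D2:**
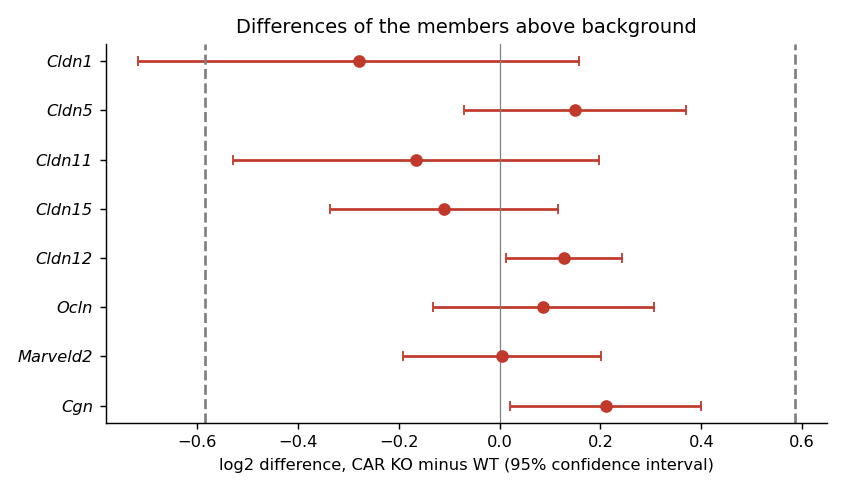
Log2 difference between CAR KO and WT (horizontal axis) of the 8 genes above background, with the 95% confidence interval from limma. The dashed lines mark a 1.5-fold change in either direction, and the interval of Cldn1 (-0.72 to 0.16) alone crosses one of them.

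Of the claudins known to close the path between cells, Cldn1, the claudin of the skin barrier, varied most between samples. It lies on chromosome 16 (chr16:26356645-26371839), 51.9 Mb from Cxadr. Its log2 signal was 6.99, 7.06, 6.91, 6.66 and 7.66 in CAR KO samples 1 to 5, against 6.84, 7.22, 7.50, 7.28 and 7.86 in WT samples 1 to 5. Sample 5 was the highest of each genotype, and the genotypes overlapped. The means were 7.06 ± 0.37 in CAR KO and 7.34 ± 0.37 in WT (SD, n = 5 each). The log2 difference of -0.28 (95% confidence interval -0.72 to 0.16) was smaller than the SD within a genotype (exact permutation test, two-sided, p = 0.270). On the linear scale the interval of the fold ran between 0.609 and 1.11, so that a decrease of over 1.5-fold lay within it. The difference depended on single samples. It was -0.43 without CAR KO sample 5 (unadjusted p = 0.0289 from limma), -0.18 without CAR KO sample 4 (unadjusted p = 0.391) and -0.15 without WT sample 5 (unadjusted p = 0.441).

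Cldn5, the main claudin of endothelial tight junctions, showed a small difference in the other direction. It also lies on chromosome 16 (chr16:18776847-18778262), 59.5 Mb from Cxadr. Its log2 signal was 7.73, 8.08, 7.71, 7.67 and 8.05 in CAR KO samples 1 to 5, against 7.64, 7.88, 7.69, 7.51 and 7.78 in WT samples 1 to 5. Samples 2 and 5 of CAR KO lay above every WT sample and the other 3 within the WT range. The log2 difference was 0.15 (95% confidence interval -0.07 to 0.37, exact permutation test, two-sided, p = 0.214). It was 0.091 without CAR KO sample 2 and 0.099 without CAR KO sample 5. The mean of 13 endothelial markers ranged between 10.30 and 10.71 in CAR KO and between 10.52 and 10.70 in WT. In bulk hearts fewer cells of a type and less RNA per cell cannot be told apart.

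Cldn11, the claudin of myelin and of Sertoli cells (chr3:31149920-31164326), had 1 sample that stood apart. In the CAR KO samples 1 to 5 its log2 signal was 8.52, 8.86, 8.90, 8.63 and 8.36, against 8.57, 8.79, 8.65, 8.63 and 9.46 in WT samples 1 to 5. WT sample 5 was higher than every other sample, and the remaining 9 samples of both genotypes lay between 8.36 and 8.90. The log2 difference of -0.17 (95% confidence interval -0.53 to 0.20, exact permutation test, two-sided, p = 0.492) was -0.01 without that sample and -0.091 without CAR KO sample 5. WT sample 5 also had the highest mean of 3 neural and neural crest markers, 7.93, against 7.20 to 7.52 in CAR KO and 7.37 to 7.50 in the other WT samples. Of the 3, Stmn2 was at 9.46 in WT sample 5, against 7.61 to 8.43 in CAR KO. Sox10 (7.54) was exceeded by CAR KO sample 4 (7.58), and Elavl4 (6.78) by CAR KO sample 3 (6.89). Over the 10 samples Pearson's r of Cldn11 with this marker mean was 0.657 (permutation test, adjusted p = 0.34). Spearman's rho was 0.067 (permutation p = 0.866). Without the 2 samples farthest from the median of the marker mean r was 0.176. The part of neural or neural crest cells in the Cldn11 signal was not tested.

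Of the claudins that form pores, Cldn15 was above background. Cldn15, a cation pore of the intestine (chr5:136967869-136975845), had log2 signals of 6.57, 6.92, 6.58, 6.82 and 6.55 in CAR KO samples 1 to 5, against 6.87, 7.09, 6.68, 6.69 and 6.66 in WT samples 1 to 5. Sample 2 was the highest of each genotype. The log2 difference was -0.11 (95% confidence interval -0.34 to 0.12, exact permutation test, two-sided, p = 0.373), which was smaller than the SD within a genotype (0.17 in CAR KO and 0.19 in WT). It was -0.037 without WT sample 2 and -0.17 without CAR KO sample 2. With the mean of the receptor clusters as a covariate, a setting added after the data were seen, it was -0.17 (unadjusted p = 0.0110 from limma), and Cldn15 was still not called over all clusters.

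Cldn2 and Cldn10 were below background in all 10 samples, and no fold is given for them. Cldn2, a pore for cations and water (chrX:139800808-139811386), had log2 signals of 5.59, 6.02, 5.49, 5.81 and 5.48 in CAR KO samples 1 to 5, against 5.39, 5.69, 5.40, 5.35 and 5.29 in WT samples 1 to 5. Cldn10, which has isoforms that pass cations or anions (chr14:118787871-118874525), had log2 signals of 5.55, 5.76, 5.73, 5.58 and 5.53 in CAR KO samples 1 to 5, against 5.61, 5.74, 5.63, 5.51 and 5.58 in WT samples 1 to 5. In both genes sample 2 was the highest of each genotype. The unadjusted p of Cldn2 was 0.0440 from limma, although the signal did not reach the background level in any sample (exact permutation test, two-sided, p = 0.0873). The second cluster of Cldn10 alone averaged 5.44 in CAR KO and 5.38 in WT, and the cluster shared with Dzip1 averaged 7.63 in CAR KO and 7.63 in WT.

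Cldn12, a claudin that lacks the usual PDZ-binding motif (chr5:5505015-5514976), varied least between samples within a genotype. Log2 signals of 9.69, 9.76, 9.87, 9.73 and 9.76 were measured in CAR KO samples 1 to 5, against 9.61, 9.60, 9.70, 9.63 and 9.63 in WT samples 1 to 5. CAR KO sample 1 was the 1 CAR KO sample below any WT sample, lying just under WT sample 3. The means were 9.76 ± 0.07 in CAR KO and 9.63 ± 0.04 in WT (SD, n = 5 each). The log2 difference of 0.13 (95% confidence interval 0.01 to 0.24) corresponded to a fold of 1.09 (1.01 to 1.18), with an unadjusted p of 0.0328 from limma (exact permutation test, two-sided, p = 0.0159). It did not pass over all clusters (adjusted p = 1.0 from limma), and 1.42% of all clusters had an equal or smaller p. When single samples were left out, the unadjusted p from limma ran between 0.0268 (without CAR KO sample 1) and 0.0878 (without CAR KO sample 3). Other settings on all 10 samples gave 0.00709 (the methods' t-test) to 0.0699 (limma after median centring).

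The genes of the MARVEL proteins, Ocln and Marveld2, are neighbours on chromosome 13, 43.2 kb apart with 1 annotated gene and 0 protein-coding genes between them. Ocln encodes occludin (chr13:100496504-100552718). Its log2 signal was 6.58, 6.46, 6.63, 6.40 and 6.82 in CAR KO samples 1 to 5, against 6.21, 6.53, 6.61, 6.44 and 6.67 in WT samples 1 to 5. It was close to the background level, which 3 of 5 CAR KO and 3 of 5 WT samples exceeded. The log2 difference was 0.09 (95% confidence interval -0.13 to 0.31, exact permutation test, two-sided, p = 0.452). It was 0.016 without WT sample 1, 0.026 without CAR KO sample 5, and 0.13 without CAR KO sample 4 or without WT sample 5.

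Marveld2 encodes tricellulin, which sits where 3 cells meet (chr13:100595957-100616971). Log2 signals were 7.28, 7.36, 7.19, 7.26 and 7.58 in CAR KO samples 1 to 5, against 7.13, 7.32, 7.45, 7.25 and 7.49 in WT samples 1 to 5. As for Cldn1 and Ocln, sample 5 was the highest of each genotype. The log2 difference was 0.01 (95% confidence interval -0.19 to 0.20, exact permutation test, two-sided, p = 0.976). Its sign turned to minus under quantile normalization and median centring.

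Cgn, the gene of cingulin (chr3:94760069-94787725), averaged higher in CAR KO by more than the SD within either genotype. Its log2 signal was 7.91, 8.22, 7.84, 8.12 and 8.14 in CAR KO samples 1 to 5, against 7.83, 7.96, 7.73, 7.70 and 7.96 in WT samples 1 to 5. Samples 2, 4 and 5 of CAR KO lay above every WT sample, and samples 1 and 3 lay within the WT range. The means were 8.05 ± 0.16 in CAR KO and 7.84 ± 0.12 in WT (SD, n = 5 each). The fold was 1.16 (1.01 to 1.32), with a log2 difference of 0.21 (95% confidence interval 0.02 to 0.40) and an unadjusted p of 0.0326 from limma (exact permutation test, two-sided, p = 0.0635). It did not pass over all clusters (adjusted p = 1.0 from limma), and 1.41% of all clusters had an equal or smaller p. When single samples were left out, the unadjusted p from limma ran between 0.0108 (without CAR KO sample 3) and 0.0834 (without CAR KO sample 2).

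Other claudins gave a similar picture. Of 20 listed relatives 18 had a cluster of their own, 11 of them above background. No relative was called by limma, and no unadjusted p was under 0.05 either. The median log2 difference was 0.02, with 14 higher and 4 lower in CAR KO, where 56.1% of all clusters were higher. The 3 brightest clusters were those of Cldnd1, a claudin domain protein, and of Cldn6 and Cldn4, which are claudins of embryonic and simple epithelia. Cldnd1 averaged 11.79 in CAR KO and 11.77 in WT, and Cldn4 averaged 8.13 in CAR KO and 8.08 in WT. Cldn6 varied most of these, with 8.04, 8.93, 8.78, 7.44 and 9.54 in CAR KO samples 1 to 5, against 7.10, 7.33, 8.85, 8.09 and 9.90 in WT samples 1 to 5. As for Cldn1, Ocln and Marveld2, sample 5 was the highest of each genotype.

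Among 32 measured tight junction partners of 38 listed (scaffolds, polarity proteins, junctional adhesion molecules, angulins and regulators), none was called by limma. An unadjusted p under 0.05 was found for 3 of 32, all lower in CAR KO, where 1.43% of all clusters were lower at that level. The median log2 difference of the partners was -0.01. Ildr2, an angulin that recruits tricellulin to contacts of 3 cells, had log2 signals of 9.16, 9.16, 8.92, 8.82 and 8.88 in CAR KO samples 1 to 5, against 9.33, 9.26, 9.18, 9.47 and 9.28 in WT samples 1 to 5. All CAR KO samples lay below all WT samples, which held for 0.238% of all clusters. The log2 difference was -0.32 (95% confidence interval -0.50 to -0.13, unadjusted p = 0.00284 from limma). Arhgef18, an activator of RhoA that binds cingulin, also did not overlap, with 9.01 to 9.15 in CAR KO and 9.16 to 9.27 in WT (log2 difference -0.14, unadjusted p = 0.0238 from limma). Jam2, a junctional adhesion molecule of endothelium and a relative of CAR, averaged 9.04 in CAR KO and 9.39 in WT (log2 difference -0.35, unadjusted p = 0.0218 from limma), and the genotypes overlapped. Jam2 lies on chromosome 16 (chr16:84774123-84826380), as does Cxadr (chr16:78301226-78359785), and is nearer to it than Cldn1 or Cldn5. Whether closeness to the targeted gene plays a part was not tested. The 3 brightest partners were Ybx3, a Y-box protein that binds ZO-1, with 12.48 in CAR KO and 12.46 in WT, Tjp1, the gene of ZO-1, with 11.65 in CAR KO and 11.71 in WT, and Afdn, the gene of afadin, with 11.27 in CAR KO and 11.16 in WT.

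The 10 genes were then set against markers of the cell types that the dissected hearts can hold, as mean log2 signals of 9 lists. Markers of epithelium ranged between 7.74 and 8.69 in CAR KO and between 7.65 and 8.51 in WT (13 genes). Their most specific members were detected, with Cdh1 at 7.0 to 9.12 in CAR KO and 7.18 to 8.81 in WT. Epcam was above background in 5 CAR KO and 3 WT samples. Cardiomyocyte markers were at 12.64 to 12.99 in CAR KO and 12.71 to 12.98 in WT (13 genes), and Tnnt2, a troponin of the sarcomere, was at 13.83 in CAR KO and 13.87 in WT. Markers of epicardium and mesothelium averaged 9.44 in CAR KO and 9.69 in WT (exact permutation test of the mean, two-sided, p = 0.0556). All 11 of 11 were lower in CAR KO, as were 12708 of all 28944 clusters. At an unadjusted p under 0.05 from limma 6 of the 11 were lower, against 1.43% of all clusters, and none was called.

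Correlations with the 9 marker means were computed over the 10 samples of both genotypes, 90 in all, and 3 passed Benjamini-Hochberg adjustment. The permutations treated the 10 samples as independent. Deviations of equally numbered samples were positively correlated, however (0.07 to 0.56 over all clusters), so the permutation p-values may be too small. Cldn1 followed the mean of 6 macrophage markers (Pearson's r = 0.95, permutation test with p = 1e-05, the smallest the resampling can give, adjusted p = 0.0009). Spearman's rho was 0.952 (permutation p = 6e-05) and r was 0.942 on deviations from the genotype means. On such deviations r of Cldn1 was similar with cushion mesenchyme (0.95) and with epithelium (0.921), so macrophage markers did not stand out there. Of 8 macrophage markers 6 were above background. Ptprc, the common leukocyte antigen, averaged 6.41 in CAR KO and 6.38 in WT, and Adgre1 5.84 and 6.22, both below it. The macrophage mean lay between 7.31 and 7.89 in CAR KO and between 7.58 and 8.13 in WT. Cldn1 also followed the mean of 10 cushion mesenchyme markers (r = 0.884, permutation p = 0.0009, adjusted p = 0.0291, and rho = 0.830, permutation p = 0.00472). The cushion mesenchyme mean lay between 10.53 and 10.96 in CAR KO and between 10.48 and 10.91 in WT. Marveld2 also followed it (r = 0.880, permutation p = 0.00097, adjusted p = 0.0291, and rho = 0.745, permutation p = 0.0172). The rho of Cldn1 with cushion mesenchyme had an adjusted permutation p of 0.0956 and that of Marveld2 of 0.194, so that neither passed by rank.

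The 3 relations were recomputed without the 2 samples farthest from the median of the marker mean. The r was then 0.884 for Cldn1 with macrophage markers, 0.724 for Cldn1 with cushion mesenchyme and 0.671 for Marveld2 with cushion mesenchyme. None of the 90 relations passed over the remaining 8 samples. Fewer samples alone raise the r needed to pass, so this cannot tell whether the 3 calls rest on those samples. The 2 samples with the highest macrophage mean were WT sample 5 and CAR KO sample 5, which also had the highest Cldn1 signals and were among the 3 with the highest hepatic mean. The part of macrophages or of other cells in the Cldn1 signal was not tested.

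On the signals themselves, epithelial markers did not pass the adjustment with any of the 10 genes. The r with their mean was 0.800 for Marveld2 (permutation p = 0.00552, adjusted p = 0.0828), 0.771 for Ocln (permutation p = 0.00702, adjusted p = 0.0831) and 0.711 for Cldn1 (permutation p = 0.0228, adjusted p = 0.158). On deviations from the genotype means r was 0.921 for Cldn1, 0.826 for Marveld2 and 0.752 for Ocln. Of the 90 relations with marker means 8 passed on such deviations, and these were counted without being named. With the epithelial mean as a covariate, a setting added after the data were seen, the log2 difference of Cldn1 was -0.45 (unadjusted p = 0.000465 from limma), and Cldn1 was still not called over all clusters. Cldn5 did not follow the endothelial mean (r = -0.44, adjusted permutation p = 0.527). Against the cardiomyocyte mean r was negative for Cldn1 (-0.79), Marveld2 (-0.78) and Ocln (-0.77), with adjusted permutation p between 0.0828 and 0.0831.

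**Figure D3:**
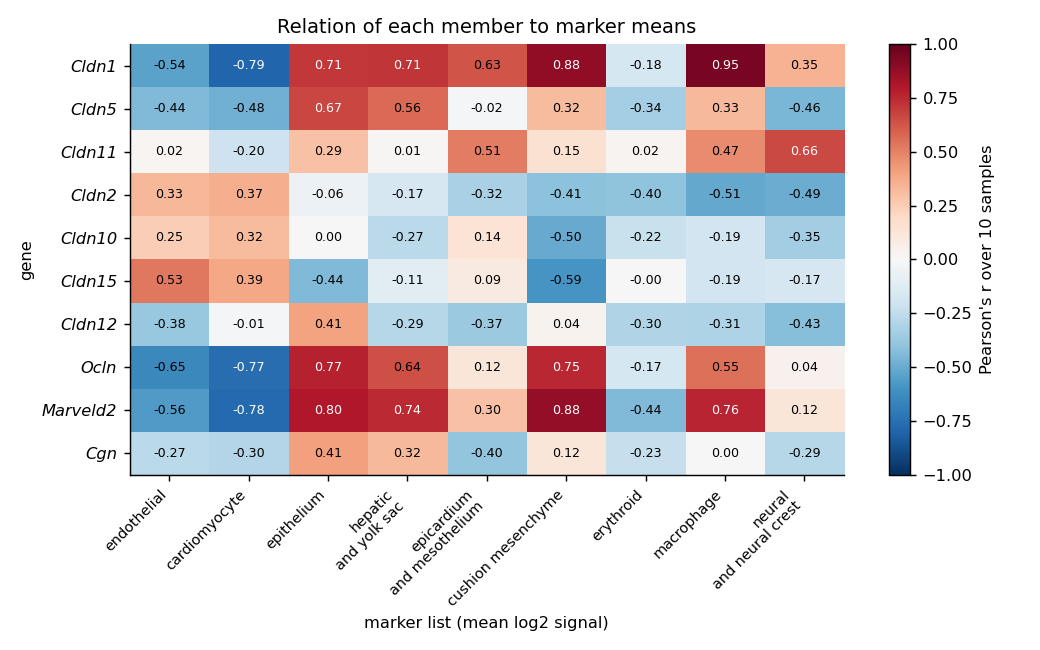
Pearson's r over the 10 samples (colour, -1 in blue to 1 in red, values printed) of each of the 10 genes (rows) with the mean log2 signal of 9 marker lists (columns). Cldn1, Ocln and Marveld2 have like signs in all 9 columns, with Cldn1 and macrophage markers at 0.95 and Cldn1 and cardiomyocyte markers at -0.79.

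**Figure D4:**
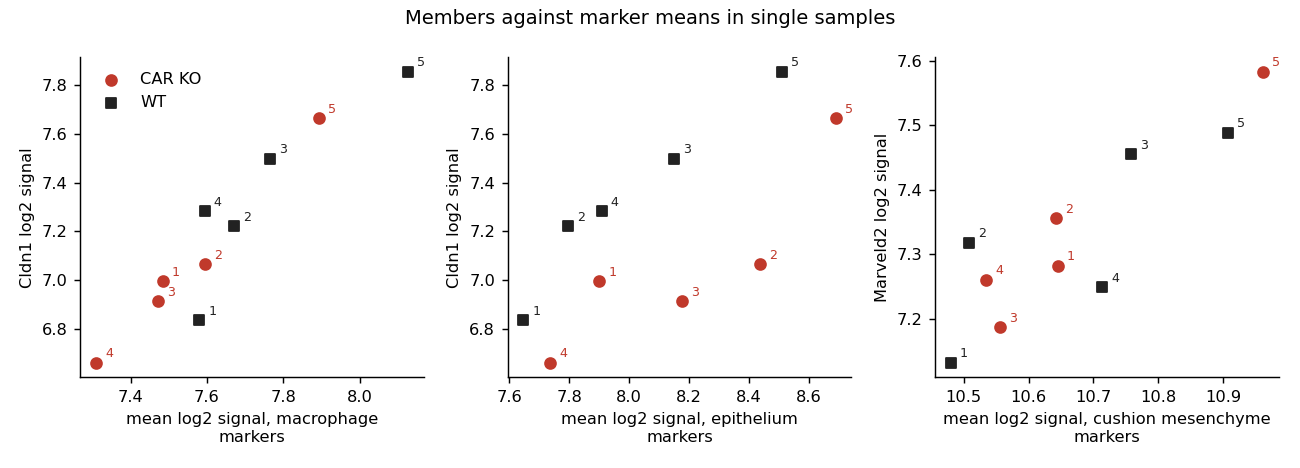
Log2 signal of Cldn1 or Marveld2 (vertical axes) against the mean log2 signal of marker genes (horizontal axes) in single samples, with CAR KO as red circles and WT as black squares, and sample numbers beside the points. Sample 5 of each genotype lies at the upper end of all 3 panels, and in the panel of Cldn1 against epithelium the CAR KO samples lie below the WT samples at a like epithelial mean.

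Pairs of the 10 genes were compared in the same way, 45 in all, a family added after the data were seen. None passed the adjustment. The highest r was that of Cldn1 with Marveld2 (0.844, permutation p = 0.00231, adjusted p = 0.104), followed by Cldn5 with Cgn (0.794) and by the neighbours Ocln and Marveld2 (0.779). The signal of dim genes was also set against the mean of the receptor clusters, which measures the general background of an array. This mean was 4.88 in CAR KO and 4.85 in WT (exact permutation test, two-sided, p = 0.595). Of 10 relations, those of Cldn2 (r = 0.804, permutation p = 0.00524, adjusted p = 0.0423, and rho = 0.721, permutation p = 0.0236) and Cldn15 (r = 0.780, permutation p = 0.00846, adjusted p = 0.0423, and rho = 0.733, permutation p = 0.0201) passed by r. By rank both had an adjusted permutation p of 0.0591. Without the 2 farthest samples r was 0.785 for Cldn2 and 0.761 for Cldn15. On deviations from the genotype means it was 0.866 for Cldn2 and 0.911 for Cldn15.

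Genes with the most similar pattern were sought for Cldn1 and Cldn11, whose signals spanned over 1 log2 unit among the samples. Deviations from the genotype means were compared with those of 14660 genes above background, as a description over 10 samples of shared arrays. For Cldn1 the nearest were Ust, a sulfotransferase of glycosaminoglycans (r = 0.987), Mpzl2, an adhesion protein of the immunoglobulin family in epithelia (r = 0.982), and Gas1, a membrane-anchored co-receptor of Hedgehog ligands (r = 0.980). For Cldn11 they were Eya2, a transcriptional co-activator (r = 0.954), Mea1 (r = 0.953) and Akr7a5, an aldo-keto reductase (r = 0.945).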

How the data were processed

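Expression was measured in 10 samples of E10.5 hearts (5 CAR KO and 5 WT, 3 pooled hearts each), which were assigned to genotypes by their labels. The authors deposited log2 signals of 35556 rows. The submitters' processing notes name MAS5, and no normalization of the scanner values is given in the sources used here. After 6612 control rows were left out, 28944 transcript clusters were fitted with limma (version 3.58.1, R 4.3.3) without trend or filter. Benjamini-Hochberg adjustment ran over every cluster, and clusters under 0.05 were called. Gene symbols came from the platform annotation, and coordinates and promoter sequences from RefSeq (GRCm38.p6), which matched 10 of 10 genes by Entrez identifier. Array medians were between 7.65 and 7.73, and the number of arrays limits the precision. No samples held the same values (correlations of 0.987 to 0.998). Single values were compared with two-sided exact permutation tests (smallest p of 0.00794), and correlations with 100000 resamples. The procedure was tested on simulated data.

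The genes and lists were chosen with earlier results of these data known. Named were all 10 genes, Cxadr, in 2 lists of relatives the 3 brightest genes and those with an unadjusted p under 0.05, the brightest or most specific markers, and the 3 genes most similar to genes spanning over 1 log2 unit. Which markers to print was decided after their values were seen. Lists of markers covered endothelium, cardiomyocytes, epithelium, liver and yolk sac, epicardium, cushion mesenchyme, erythroid cells, macrophages and neural cells. Of these the erythroid mean was 11.27 in CAR KO and 11.33 in WT. Alternatives were quantile normalization, median centring, a filter on dim clusters (40th percentile), 1-gene clusters, the methods' t-test, an intensity trend with a robust prior, array weights, a replicate block and the omission of single samples. The omission of 3 liver-rich samples was chosen after seeing the data, as were the epithelial, hepatic and receptor means as covariates. Figures were drawn with matplotlib 3.10.9.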

Additional observations from a re-analysis of the deposited data

Results flagged for a closer look

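Of 38 sets of 5 samples examined (each gene and each marker mean in each genotype), 5 held a sample far from the others, where chance gives about 1 in 20, or 1.9. The gap to the nearest sample is given as a share of the range of the 5 samples. Cldn11 was high in WT sample 5, with a gap of 0.758. Cldn2 was high in WT sample 2, with a gap of 0.721, and this gene was below background in every sample. In CAR KO sample 5 the mean of the cardiomyocyte markers was low (12.64 against 12.92 to 12.99 in the other CAR KO samples, gap 0.814) and that of the cushion mesenchyme markers was high (10.96 against 10.53 to 10.65, gap 0.742). The mean of the neural and neural crest markers was high in WT sample 5 (gap 0.757). Among its markers Stmn2 was at 9.46 there, whereas Sox10 (7.54) and Elavl4 (6.78) were each exceeded in a CAR KO sample.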

How the results depend on the processing

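No gene of the 10 and none of the other claudins or partners passed an adjusted p under 0.05 under any alternative run, and Cxadr passed under all of them, with log2 differences between -1.97 and -1.84. Genes with an unadjusted p under 0.05 numbered 3, and 0 to 3 when single samples were left out (0 without WT sample 1 or 4, and 1 without CAR KO sample 2 or 4 or WT sample 3). Of all clusters, 696 had an unadjusted p under 0.05, against 411 to 1029 without single samples and 1811 with array weights. With a replicate block on sample number, 5 of the 10 genes did (Cldn1, Cldn5, Cldn2, Cldn12 and Cgn), as did 1304 of all clusters, and Cxadr alone was called. Correlations of equally numbered samples' deviations were 0.07 to 0.56 over all clusters (0.12 to 0.57 above background), and for 4 of 5 CAR KO samples the highest correlation was that with the equally numbered WT sample. The labels give no meaning to the numbers and 1 pair lay under 0.1 over all clusters, so the numbers were not taken as pairing. That choice does not exclude something shared by equally numbered samples, and tests without the block treated the 10 samples as independent. Under the block the unadjusted p was 0.0343 for Cldn1 and 0.0274 for Cldn5. In the main fit 28173 of all 28944 clusters had an interval within 1.5-fold and 17526 within 1.2-fold. Genes with an interval within 1.5-fold numbered 9 of 10, 8 to 10 without single samples, 10 with the block, 5 with the filter on dim clusters, which left 6 of the 10 genes, and 3 with a limit of 1.2-fold. Apart from the filtered count these include genes below background (Cldn2 and Cldn10 in the 9, Cldn10 in the 3), whose intervals say nothing about their transcripts. Genes above background numbered 5 with the 99th percentile of the receptors.

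Signs were followed in the 8 genes above background, without Cldn2 and Cldn10, and turned in 2 of them. The log2 difference of Cldn11 was 0.11 without the 3 liver-rich samples. That of Marveld2, near 0 throughout, was -0.0055 with quantile normalization, -0.0011 with median centring, -0.015 with array weights, -0.0071 without the 3 liver-rich samples and -0.058 with the epithelial covariate, and ranged between -0.057 and 0.045 when single samples were left out. The cause was not tested. Relations with marker means passing adjustment numbered 3, against 8 on deviations from the genotype means, 7 with quantile normalization and 0 without the 2 farthest samples. Fewer samples alone make passing harder in the last of these. Quantile normalization moved the median of all differences to 0.0045, against 0.011 as deposited. Averaging all clusters of a gene concerns Cldn10 alone, which was below background, and was not run. On the arrays, Cldn2 and Cldn10 have only an upper bound, as does Cxadr in 3 of 5 CAR KO samples, and differences of dim genes are compressed.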
